A study of Mus musculus with 17 samples.

Results

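RNA of mouse primary neurons given an ApoE particle was set against RNA of control neurons from the same table of counts. The comparison holds 4 of the 17 libraries of the series: ApoE particle libraries 1 and 2, and control libraries 1 and 2. These libraries were chosen by the names of the count columns, and all 30552 genes listed in their table are described. Per the labels, both groups were primary neurons from brain of C57BL/6 mice grown by a standard culture protocol, total RNA was taken up in Trizol, and sequencing libraries were made with the NEBNext Ultra RNA kit. The labels give no allele or transgene for either group. The labels leave out the particle's make-up, its dose, the time on the cells, the age of the animals and what the control cells received. Separate cultures are not stated for the libraries within a group, so every p-value measures only the spread between these samples.

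ApoE is the main apolipoprotein of the brain. Astrocytes and microglia make it, load it with cholesterol and phospholipid through ABC transporters, and release particles that neurons take up through receptors of the low-density lipoprotein family. Sterol that enters a cell is known to hold the SREBP2 precursor in the endoplasmic reticulum, bound to SCAP and INSIG, which lowers transcription of the enzymes that make cholesterol. Oxysterols are known to act on the other side, through the LXR receptors, which raise exporters such as ABCA1. The study's title names neuronal cholesterol metabolism and histone acetylation, and the comparison asks which transcripts of primary neurons differ with the particle.

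The particle libraries held 15794948 and 17115592 counts, and the control libraries 15815829 and 17697855 counts. Of the genes listed, 16475 had enough counts to be tested with edgeR's quasi-likelihood test, and a gene is called when its Benjamini-Hochberg adjusted p was under 0.05. With the particle 3119 genes rose, 18.9% of those tested, and 2874 fell, 17.4%. Every count of calls in a list below is to be read beside these shares. Among genes whose libraries did not overlap, 5571 (33.8%) were higher with the particle and 5601 (34%) were lower. Rises were larger than falls: 1462 called genes (8.87%) had a log2 fold change of at least 1, and 419 (2.54%) had one of −1 or lower. At a log2 fold change of at least 2 there were 281 (1.71%), and at −2 or lower there were 70 (0.425%). The median log2 fold change over all genes tested was −0.01, with the 10th percentile at −0.58 and the 90th at 0.99. Scaling by library totals alone moved that median up by 0.10 and gave 3832 rises and 2009 falls, so that 65.6% of calls were rises, against 52.0% with TMM (trimmed mean of M values) scaling. Counts of 3 or fewer calls in a list moved by at most 2 calls when 1 library was left out, except where given beside the list.

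The particle libraries were closer to each other than the control libraries were. Among 8898 genes at 20 CPM (counts scaled to library size) or more, 4 differed by over 1.5-fold between the particle libraries and 132 between the control libraries. The first principal component, 78.9% of the variance, separated particle from control, and the second, 14.2%, separated the control libraries from each other. Apoe itself, which is made mainly by glia, stood at 2388 and 2316 CPM in the particle libraries and at 1610 and 1154 CPM in the control libraries. Both particle libraries were above both controls (log2 fold change 0.77 ± 0.14 SE, adjusted p = 0.00131, edgeR).

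The enzymes that make cholesterol fell as a group. Of the 11 enzymes from acetyl-CoA to squalene epoxide, all of which were tested, 10 fell, with a median log2 fold change of −1.83, against −0.01 for all genes tested. Of the 12 enzymes from squalene epoxide to cholesterol, all tested, 10 fell, with a median of −1.42. Summed over the early enzymes, the level was 946 and 891 CPM in the particle libraries and 2872 and 3078 CPM in the control libraries. The counts of falls were 10 in both lists without any one library, except that 11 of the later enzymes fell without control library 2.

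Mvd, which decarboxylates mevalonate diphosphate to the isoprenoid unit of the pathway, had 17.4 and 14.4 CPM in the particle libraries and 102 and 109 CPM in the control libraries. The groups lay far apart, with a log2 fold change of −2.73 ± 0.11 (adjusted p = 8.83e-07, edgeR). That value was the lowest among genes at 20 CPM or more whose libraries did not overlap, with predicted genes left out. Hmgcs1, which makes HMG-CoA, had 363 and 328 CPM with the particle and 1245 and 1280 CPM in controls. Each control value of these 2 genes was over 3 times the particle value of the same gene. Idi1, the isomerase that follows Mvd in the pathway, had 19.5 and 18.0 CPM with the particle and 69.8 and 84.2 CPM in controls (−2.04 ± 0.12). Acat2, which joins acetyl-CoA units at the entry of the pathway, fell by 1.83 on the log2 scale, Fdft1, which commits the pathway to sterols by making squalene, fell by 1.68, and Sqle, which oxidises squalene, fell by 1.25. The kinases Mvk and Pmvk fell by 1.26 and 0.90. Fdps fell by 2.11 at 1.9 and 1.74 CPM with the particle and 6.29 and 9.43 CPM in controls, a low level that is uncertain because Fdps has near-identical copies in the genome between which counts could be split. Ggps1, which leads to geranylgeranyl groups for proteins and not to sterol, did not pass the threshold (−0.18 ± 0.09, adjusted p = 0.127).

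Among the later enzymes Nsdhl, a sterol dehydrogenase, had 22.8 and 25.6 CPM with the particle and 88.1 and 93.0 CPM in controls (−1.90 ± 0.10). Dhcr7, which makes cholesterol in the last step of one branch, had 41.6 and 43.3 CPM with the particle and 145 and 143 CPM in controls (−1.76 ± 0.09). In both genes the libraries of a group agreed closely and the groups did not overlap. Msmo1 fell by 1.73, Cyp51, the lanosterol demethylase, by 1.54, and Lss, the lanosterol synthase, fell by 1.504. Tm7sf2, Hsd17b7 and Sc5d fell by 1.32, 1.30 and 1.01, and Erg28, which tethers enzymes of the pathway, by 0.73. Lbr, a reductase that also anchors chromatin at the nuclear envelope, and Ebp, the sterol isomerase, did not pass the threshold (−0.21 ± 0.14 and −0.43 ± 0.19, adjusted p = 0.28 and 0.0994).

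**Figure D1:**
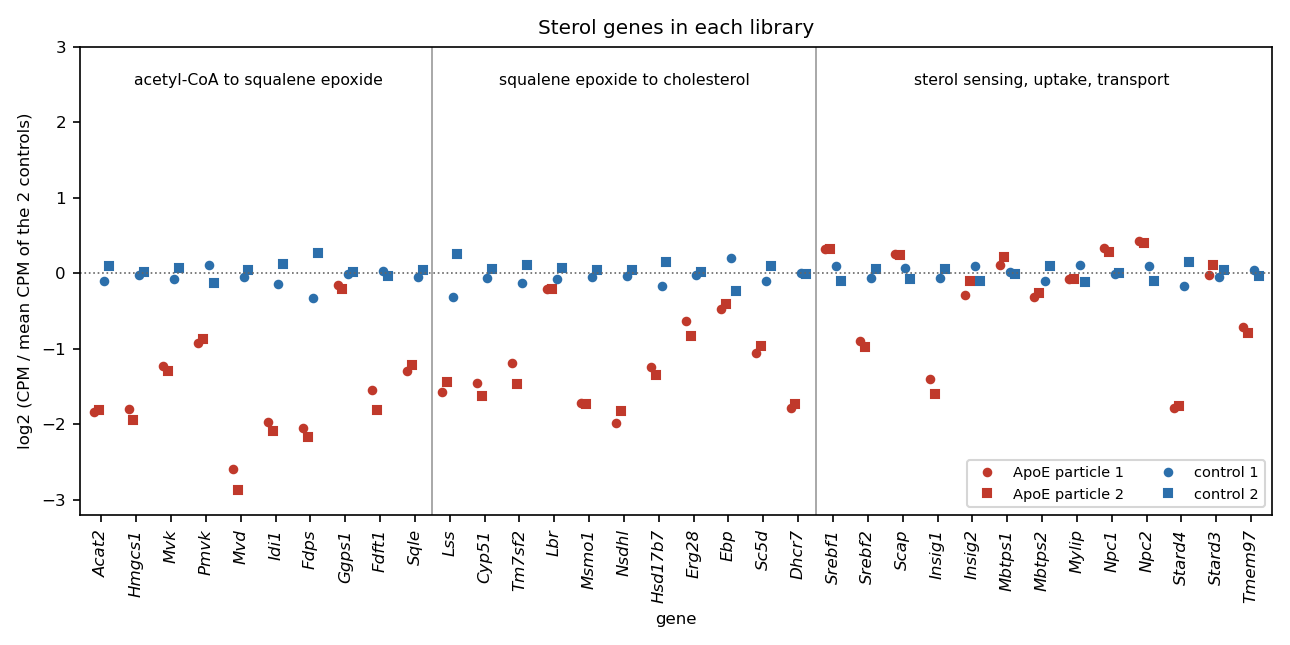
Level of the tested sterol genes that the text names in the 4 libraries, as log2 of its CPM over the mean CPM of the 2 control libraries, with genes in pathway order from left to right and the particle libraries (red) left of the control libraries (blue) for each gene. The particle points of Mvd lie lowest, and Ggps1, Lbr and Ebp stay near the controls.

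Genes that sense, take up or move sterol split by role. Of 17 listed genes 16 were in the table and 15 were tested. Of these 6 fell and 5 rose, beside 17.4% falling and 18.9% rising among all genes tested. Stard4, a soluble sterol carrier, fell by 1.78, Insig1, which holds the SREBP precursor, by 1.497, Srebf2, which encodes SREBP2, by 0.94, and Tmem97, which limits NPC1, by 0.75. Mbtps2, a protease that frees SREBP, fell by 0.29, but the Mbtps2 log2 fold change did not pass the threshold without control library 2 (adjusted p = 0.0654, edgeR). Npc2 and Npc1, which move cholesterol out of lysosomes, rose by 0.41 and 0.31, Srebf1, the SREBP of fatty acid synthesis, by 0.32, and its escort Scap by 0.25. Insig2, Mbtps1, Mylip, a ubiquitin ligase, and Stard3 did not pass the threshold, with log2 fold changes from −0.19 to 0.16. The rises were the weaker side: without particle library 1 only 1 of them passed the threshold, and without particle library 2 only 2 did, while 5 falls passed in each case and also without control library 2.

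Promoter sequences of 6 enzymes that fell are shown because the lists moved together and known binding sites can be looked for in them. The 6 genes are examples, picked without a fixed rule. RefSeq promoter windows on GRCm38.p6, from 250 bases before to 50 bases after the start, could be matched to 11621 of the genes tested, among them 7 of the 11 early and 11 of the 12 later enzymes. The NF-Y box CCAAT, read on both strands, was in 6 of the 7 early and 10 of the 11 later windows, and in 42.6% of the windows of all genes tested. In the fatty acid synthesis list the box was in 11 of 20 windows. NF-Y is known to work beside SREBP at sterol genes. The sterol regulatory element core TCACNCCAC was in 1 of the 7 early windows, that of Hmgcs1, in 0 of the 11 later ones and in 1.4% of all. Below are the 150 bases before the start, 5′ to 3′ in the sense of the gene, with matches in capitals: the element core in Hmgcs1, 137 bases before the start, and CCAAT or its reverse complement ATTGG in all 6. No matches shared a base. For a gene with several starts, here and below, the stretch shown is the one with the most matches, so the matches shown were selected for.
Hmgcs1 (chr13:119690201-119690350, plus strand): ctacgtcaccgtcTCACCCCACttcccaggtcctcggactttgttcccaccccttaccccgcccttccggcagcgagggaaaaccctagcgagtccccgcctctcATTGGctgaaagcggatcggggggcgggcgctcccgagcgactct
Mvd (chr8:122443423-122443572, minus strand): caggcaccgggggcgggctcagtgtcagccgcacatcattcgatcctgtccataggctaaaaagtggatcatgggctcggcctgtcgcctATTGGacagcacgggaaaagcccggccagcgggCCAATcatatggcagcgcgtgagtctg
Idi1 (chr13:8885456-8885605, plus strand): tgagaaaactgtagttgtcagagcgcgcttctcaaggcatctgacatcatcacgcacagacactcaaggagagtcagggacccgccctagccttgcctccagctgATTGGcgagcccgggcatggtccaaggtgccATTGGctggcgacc
Nsdhl (chrX:72918371-72918520, plus strand): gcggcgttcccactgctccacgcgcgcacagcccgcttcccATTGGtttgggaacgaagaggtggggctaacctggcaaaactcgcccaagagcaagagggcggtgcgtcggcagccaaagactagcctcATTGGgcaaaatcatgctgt
Dhcr7 (chr7:143830064-143830213, plus strand): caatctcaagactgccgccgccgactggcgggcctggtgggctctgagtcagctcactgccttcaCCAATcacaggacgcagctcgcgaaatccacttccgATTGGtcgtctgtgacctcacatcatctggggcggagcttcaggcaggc
Msmo1 (chr8:64733579-64733728, minus strand): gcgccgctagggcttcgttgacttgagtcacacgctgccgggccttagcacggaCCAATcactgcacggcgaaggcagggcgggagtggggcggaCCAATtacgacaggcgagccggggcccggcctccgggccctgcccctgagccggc
Nsdhl, Dhcr7, Msmo1, Mvd and Idi1 each held a pair of NF-Y boxes in this stretch and Hmgcs1 held 1.

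Genes of cholesterol export and storage moved both ways. Of 17 listed genes 15 were tested, and 5 rose and 4 fell, with a median of 0.14. Among all genes tested 18.9% rose and 17.4% fell. Abca1, the exporter that loads ApoE with cholesterol, had 653 and 699 CPM with the particle and 302 and 326 CPM in controls (1.11 ± 0.09). Soat1, which esterifies cholesterol for storage, rose by 0.84, Cyp7b1, an oxysterol hydroxylase, by 0.70, and Abcg1, another exporter, by 0.33. Cyp46a1, by which neurons turn cholesterol into a form that leaves the brain, had 63.5 and 63.3 CPM with the particle and 103 and 93.3 CPM in controls, and Scarb1, a receptor for high-density lipoprotein, fell by 0.65. Without particle library 1, and likewise without particle library 2, the counts were 3 rises and 3 falls.

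Of the apolipoproteins and lipases, 11 of 14 were tested and 8 rose, with a median of 0.77. Hspg2, the heparan sulfate proteoglycan perlecan, to which lipoproteins bind, had 126 and 163 CPM with the particle and 32.8 and 33.0 CPM in controls (2.13 ± 0.12). Pltp, which transfers phospholipid between particles, rose by 1.59, Clu, the other abundant apolipoprotein of brain, by 1.01, Lpl, a lipoprotein lipase, by 0.86 and Lipa, the lysosomal acid lipase, by 0.66. In the same libraries 24 of 25 tested microglia markers rose (median 1.71), as did 16 of 24 astrocyte markers (median 0.55), and their part in these values and in those of the receptors was not tested. Of the 16 receptors of ApoE and related sorting receptors, all tested, 7 rose and 1 fell, with a median of 0.22. Lrp2, or megalin, a receptor best known from epithelia, had 112 and 137 CPM with the particle and 27.7 and 23.2 CPM in controls (2.29 ± 0.12), and Trem2, a microglial receptor that binds ApoE, rose by 1.77. Vldlr, a neuronal receptor for reelin and ApoE, fell by 0.64, and Lrp1 and Lrp8, the other neuronal ApoE receptors, had log2 fold changes of −0.00 and 0.00 and did not pass the threshold. Without particle library 1 or 2 the receptor count was 4 rises, and without control library 1 it was 7 rises and 3 falls.

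Of 24 genes of fatty acid synthesis, all tested, 12 fell and 1 rose, with a median of −0.23. Fasn, the fatty acid synthase, had 379 and 384 CPM with the particle and 727 and 837 CPM in controls (−1.04 ± 0.10). Scd1, the desaturase, fell by 1.05, the elongase Elovl6 by 1.13, and Acsl4 and Acsl3, which activate long-chain fatty acids, by 1.17 and 0.72. Of 19 tested genes of acetyl-CoA supply 8 rose and 5 fell, beside 18.9% rising and 17.4% falling among all genes tested. Acly, which makes cytosolic acetyl-CoA from citrate, had 189 and 183 CPM with the particle and 374 and 443 CPM in controls, and Slc25a1, which exports that citrate from mitochondria, fell by 0.64. Cpt1a, the gate of fatty acid import into mitochondria, had 126 and 141 CPM with the particle and 68.5 and 60.9 CPM in controls (1.04 ± 0.10), Cpt2, its partner on the inner membrane, rose by 0.87, and Pdk4, which blocks pyruvate oxidation, by 0.63. The acetyl-CoA counts were 4 rises and 2 falls without particle library 2, 6 and 3 without particle library 1, and 8 and 8 without control library 1.

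Of 28 tested genes of lipid droplets and phospholipid synthesis 6 rose and 7 fell, beside 18.9% rising and 17.4% falling among all genes tested. Plin2, a coat protein of lipid droplets, had 81.8 and 73.6 CPM with the particle and 29.4 and 21.8 CPM in controls (1.605 ± 0.13), with no overlap, and Plin3, a related coat protein, rose by 0.81. Dgat2, which makes triglyceride, fell by 0.85, Fabp3, a fatty acid carrier, by 0.94 and Pcyt2, of phosphatidylethanolamine synthesis, by 0.83. Without particle library 2 the counts were 2 rises and 3 falls, and without particle library 1 they were 5 and 4.

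Histone acetylation genes changed little and in both directions. Of 15 histone acetyltransferase genes 3 rose and 2 fell, and of 17 deacetylases and sirtuins 3 rose and 5 fell, beside 18.9% rising and 17.4% falling among all genes tested. Kat2b had 34.6 and 40.3 CPM with the particle and 23.6 and 21.9 CPM in controls (0.72 ± 0.12), and its close relative Kat2a had 64.0 and 62.3 CPM with the particle and 77.5 and 83.3 CPM in controls (−0.35 ± 0.09). Ep300 and Crebbp, the most widely used acetyltransferases, did not pass the threshold (0.03 and −0.10). Hdac11 had 20.8 and 17.3 CPM with the particle and 36.6 and 35.5 CPM in controls (−0.92 ± 0.12), Hdac9 fell by 0.58, and Hdac1 and the myelin-associated Sirt2 rose by 0.44 and 0.40. Without particle library 1, and likewise without particle library 2, the deacetylase counts were 1 rise and 2 falls and the acetyltransferase counts 2 rises and 0 falls. Without control library 1 there were 4 acetyltransferase falls.

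Neuronal transcripts fell across every list of synapse and channel genes. Of 37 genes of the presynaptic terminal 31 fell (median −0.67), of 34 postsynaptic genes 28 fell and 2 rose (−0.50), of 24 glutamate receptors 16 fell and 1 rose (−0.51), and of 22 tested genes of GABA and glycine signalling 15 fell (−0.59). Of 48 potassium channel genes 31 fell and 4 rose (−0.58), and of 36 genes of sodium, calcium and HCN channels 24 fell and 3 rose (−0.47). Without particle library 2 the postsynaptic falls were 18, and the presynaptic falls 28.

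Slc30a3, which fills glutamate vesicles with zinc, had 0.74 and 0.39 CPM with the particle and 9.86 and 9.79 CPM in controls (−4.12 ± 0.29). Slc17a7, the vesicular glutamate transporter of cortical neurons, had 46.1 and 47.3 CPM with the particle and 165 and 154 CPM in controls (−1.77 ± 0.09). Both genes mark glutamate terminals, and their particle libraries lay well below their controls. Slc17a6, the transporter of other glutamate neurons, fell by 0.46. Syt4 and Rph3a, which act in vesicle release, both fell by 1.20, and Sv2c, a vesicle glycoprotein, by 1.09. On the postsynaptic side Nrgn, or neurogranin, which buffers calmodulin in dendrites, had 91.7 and 84.3 CPM with the particle and 568 and 480 CPM in controls (ENSMUSG00000053310, −2.58 ± 0.11). Lrrtm3 and Lrrtm1, which bind neurexins across the cleft, fell by 1.10 and 1.06, Camkv by 0.87, and the scaffold gene Homer3 rose by 1.11.

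Receptor and channel subunits did not fall evenly. Grin2d, an NMDA receptor subunit of interneurons, had 5.9 and 5.73 CPM with the particle and 21.5 and 22.3 CPM in controls (−1.91 ± 0.15), while the AMPA receptor subunits Gria1 and Gria2 fell by 0.37 and 0.36. Grm7 and Grm2, metabotropic receptors of presynaptic terminals, fell by 1.22 and 1.06, and Grm3 fell by 0.88 with control libraries that stood apart (13.8 and 15.3 CPM with the particle, 19.9 and 33.4 CPM in controls). Gabra3 and Gabra5, subunits of GABA receptors, fell by 1.35 and 0.75. Kcnip2, an accessory subunit of Kv4 channels, had 10.4 and 8.88 CPM with the particle and 38.5 and 36.5 CPM in controls (−1.96 ± 0.13), and Kcnc2, the Kv3 channel of fast-spiking neurons, had 17.1 and 17.2 CPM with the particle and 52.4 and 60.2 CPM in controls (−1.71 ± 0.11). The channels that rose include ones known from glia: Kcnj10, the potassium channel of astrocytes, rose by 1.07, and Scn7a by 1.62.

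Neuropeptide genes showed some of the lowest values. Of 29 tested members 16 fell and 4 rose, with a median of −0.56, and 7 rose without control library 1. Vip, the peptide of one interneuron class, had 0.61 and 0.17 CPM with the particle and 7.59 and 7 CPM in controls (−4.22 ± 0.38). Nxph2, a neurexin ligand, had 1.9 and 0.96 CPM with the particle and 19.9 and 18.6 CPM in controls (−3.76 ± 0.25), and its relative Nxph1 had 14.7 and 14.6 CPM with the particle and 57.0 and 65.4 CPM in controls (−2.06 ± 0.11). Nts and Tac2 fell by 2.68 and 3.16. Cortistatin, Cort, had 1 count in each particle library and 17 and 29 counts in the controls. Its relative Sst did not pass the threshold (0.14 ± 0.11), and Npy had 56.4 and 56.7 CPM with the particle and 29.8 and 23.3 CPM in controls, so peptides of inhibitory neurons did not move as 1 group. Penk, Pdyn and Rln1 rose by 0.81, 0.92 and 2.77.

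Of 36 transcription factors of neuron types 19 fell and 4 rose, with a median of −0.31. Lhx6, of interneurons from the medial ganglionic eminence, had 20.7 and 18.4 CPM with the particle and 55.4 and 52.6 CPM in controls (−1.47 ± 0.11), while Nkx2-1, which acts earlier in the same lineage, had 13.6 and 12.6 CPM with the particle and 7.53 and 4.63 CPM in controls (1.12 ± 0.21). Foxp2 rose by 1.10, and Nr4a2, Rorb and Satb1 fell by 1.58, 1.01 and 1.00. Dlx1, Dlx2, Dlx5 and Dlx6, shared by most forebrain interneurons, had log2 fold changes from −0.13 to −0.01 and did not pass the threshold. Without particle library 2 there were 12 falls, and without control library 2 there were 8 rises and 20 falls. Of 32 genes of axons and the cytoskeleton 23 fell (median −0.49, 15 without particle library 2). Nefl, the neurofilament light chain, had 21.3 and 17.6 CPM with the particle and 53.2 and 50.1 CPM in controls, Dpysl2, which binds tubulin in axons, fell by 0.93 and Stmn2 by 0.77, and Tubb3 and Dcx did not pass the threshold (−0.16 and −0.06).

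In the list of general neuron markers 14 of 16 fell, with a median of −0.55, and the summed level was 8894 and 8556 CPM with the particle and 11724 and 12283 CPM in controls. Rbfox3, or NeuN, had 93.2 and 94.0 CPM with the particle and 130 and 129 CPM in controls (−0.47 ± 0.08), and Syt1, Snap25 and Eno2 fell by 0.95, 0.96 and 0.97. In these bulk libraries fewer neurons and less RNA per neuron cannot be told apart. Markers of other cells were higher in the same libraries, as given next, and their part in the lower neuronal values was not tested. The label of primary neurons holds in that every general neuron marker was detected in all 4 libraries, beside markers of glia.

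**Figure D2:**
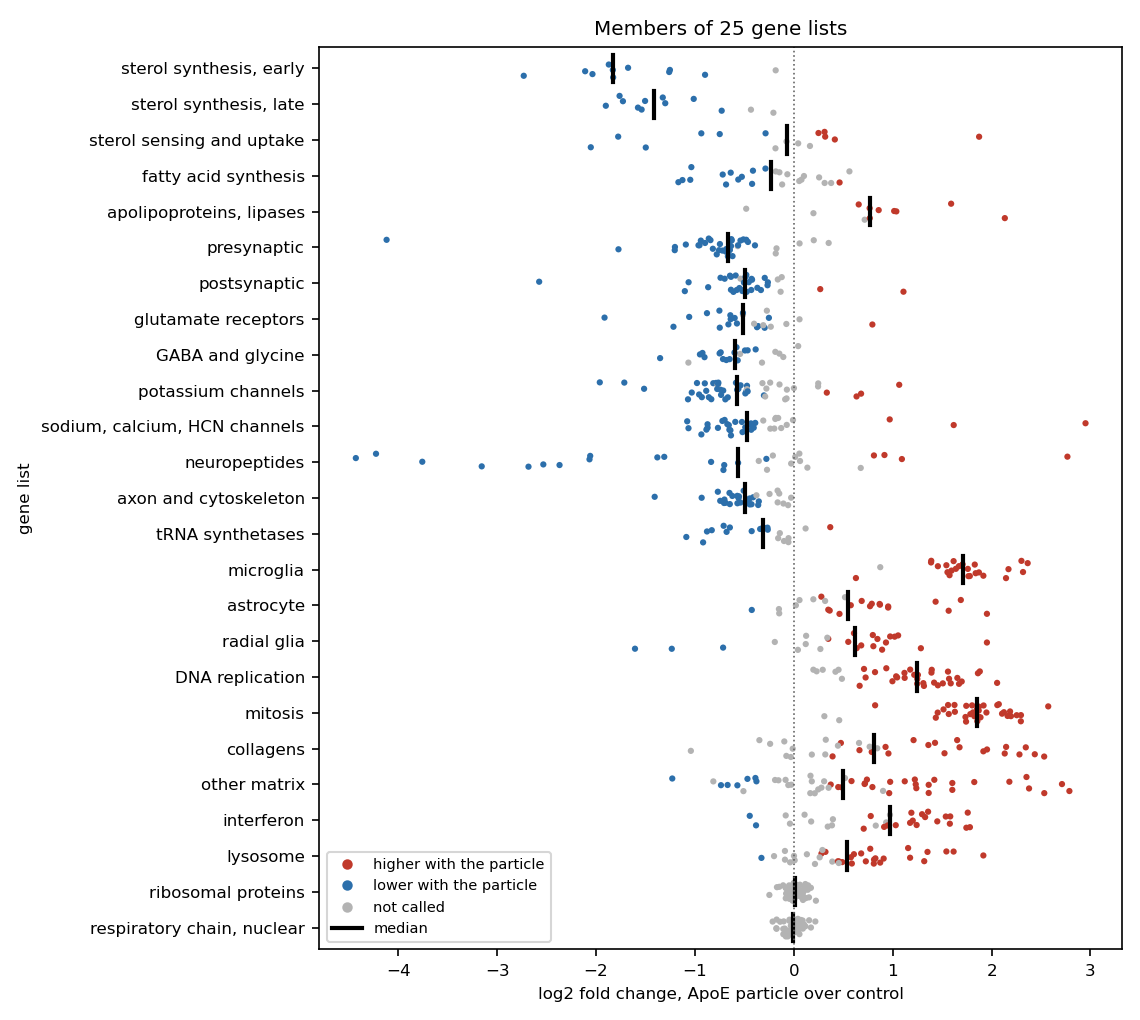
Log2 fold change (particle over control, horizontal axis) of every tested member of 25 gene lists, coloured by whether the member was called higher (red) or lower (blue) with the particle, with a bar at each list's median. Sterol synthesis and neuronal lists lie left of 0, glial, division and matrix lists right of 0, and the ribosomal and respiratory lists close to it.

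Microglia markers rose in 24 of 25 tested cases, with a median log2 fold change of 1.71. The list sums to 1597 and 1706 CPM with the particle and 601 and 453 CPM in controls. C1qa, the first complement component, had 61.4 and 59.0 CPM with the particle and 18.2 and 14.7 CPM in controls (1.87 ± 0.12), and Cx3cr1, the fractalkine receptor, had 29.4 and 26.2 CPM with the particle and 5.19 and 6.05 CPM in controls (2.30 ± 0.15). Every tested marker of the list had both particle libraries above both controls, against 33.8% of all genes tested. Tyrobp and Ptprc, a signalling adaptor and the leukocyte antigen CD45, rose by 2.17 and 2.15, and Gpr34 and Olfml3 by 2.32 and 2.37. Itgam did not pass the threshold (0.87), and Tmem119 and Siglech had too few counts to be tested. Tmem119, a marker of mature microglia, had 17 and 6 counts with the particle and 3 and 0 in controls.

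Genes of activated, lipid-handling microglia rose in 21 of 24 tested cases, and 1 fell (median 1.19). Mmp12, a macrophage elastase, had 16.5 and 16.6 CPM with the particle and 3.37 and 2.37 CPM in controls (2.53 ± 0.20). The scavenger receptors Msr1 and Cd36 rose by 2.04 and 1.91, and Csf1, the growth factor of microglia, had 151 and 172 CPM with the particle and 50.1 and 42.6 CPM in controls (1.80 ± 0.11). Il34, the other ligand of the same receptor, which neurons make, had 0.98 and 1.24 CPM with the particle and 2.08 and 2.73 CPM in controls (−1.11). Cx3cl1, the neuronal ligand of Cx3cr1, fell by 0.55. Complement genes rose in 14 of 18 cases (median 1.10), with C5ar1 and C3ar1, receptors of complement fragments, up by 2.79 and 1.6. Of 17 tested chemokine and cytokine genes 8 rose and 3 fell: Ccl3 had 7.56 and 7.81 CPM with the particle and 1.69 and 1.42 CPM in controls, and Cxcl10, an interferon-induced chemokine, 6.58 and 8.37 CPM with the particle and 1.56 and 1.84 CPM in controls. Ccl2 rose at low counts, with 41 and 70 counts with the particle and 11 and 1 in controls, and so did Ccl4, with 71 counts in each particle library and 16 and 2 in controls. The control libraries of both lay far apart, and neither gene was called by DESeq2. Tnf, Il6, Il1a and Il1b had too few counts to be tested.

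Of 31 interferon-response genes, all tested, 19 rose and 2 fell, with a median of 0.97. Gbp2, a guanylate-binding protein, had 10.7 and 14.5 CPM with the particle and 4.02 and 3.44 CPM in controls (1.76 ± 0.21), and Ifit3 had 5.72 and 7.31 CPM with the particle and 2.08 and 1.72 CPM in controls (1.78 ± 0.25). Oasl2 rose by 1.75, with the reservation that the Oas genes are alike and could share reads, and Bst2 and Gbp3 by 1.58 and 1.54. Without particle library 2 there were 13 rises, and without particle library 1 there were 19. Of 18 tested genes of antigen presentation 8 rose and 1 fell; Nlrc5, which switches on MHC class I genes, rose by 1.97 and the peptide transporters Tap1 and Tap2 by 1.33 and 1.32, while H2-Q4 (1.40) belongs to a family of near-identical copies. The interferon-stimulated response element, searched on both strands, was in 14 of the 27 promoter windows of the interferon list and in 3.67% of those of all genes tested. The 150 bases before the start of the genes with the largest rises whose match lies in this stretch are shown, with the match in capitals, 59 bases before the start in Gbp2 and 122 in Ifit3.
Gbp2 (chr3:142620513-142620662, plus strand): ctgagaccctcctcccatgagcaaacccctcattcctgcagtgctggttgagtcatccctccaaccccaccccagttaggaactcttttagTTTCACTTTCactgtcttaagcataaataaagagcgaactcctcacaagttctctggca
Ifit3 (chr19:34583379-34583528, plus strand): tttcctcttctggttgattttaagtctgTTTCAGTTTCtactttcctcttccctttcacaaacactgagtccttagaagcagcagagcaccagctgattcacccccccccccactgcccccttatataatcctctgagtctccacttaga

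Astrocyte markers rose in 16 of 24 tested cases and 1 fell (median 0.55), and the list sums to 9318 and 9256 CPM with the particle and 6688 and 6011 CPM in controls. Gfap, the intermediate filament of reactive astrocytes, had 1143 and 1060 CPM with the particle and 628 and 509 CPM in controls, and Aqp4, the water channel of their end feet, 447 and 429 CPM with the particle and 244 and 235 CPM in controls (0.87 ± 0.09). Vim and Nes, filaments of immature and reactive glia, rose by 1.69 and 1.95, the highest of the list. S100b and Agt, other astrocyte markers, rose by 1.57 and 1.43. Aldoc, Glul, Atp1b2 and Ndrg2, which also mark astrocytes, had log2 fold changes from −0.15 to 0.20 and did not pass the threshold. The glutamate transporters split, with Slc1a3 up by 0.35 and Slc1a2 down (−0.42). Among markers of radial glia and progenitors 15 of 24 tested rose and 3 fell (median 0.62): the receptors Notch1, Notch2 and Notch3 rose by 0.93, 1.05 and 0.85, the ligands Dll1 and Dll3 fell by 0.71 and 1.23, and the Notch target Hes5 had 0.98 and 1.12 CPM with the particle and 3.5 and 2.97 CPM in controls (−1.61 ± 0.32), while its relative Hes1 rose by 0.68.

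Markers of other cells were fewer. Of 12 tested oligodendrocyte markers 5 rose and 4 fell, with a summed level of 344 to 362 CPM with the particle and 246 to 297 CPM in controls. Cspg4, or NG2, rose by 1.71 and Olig1 by 0.54, while Pdgfra, which marks the same precursors, and Mbp and Mog, of myelin, fell by 0.71, 0.70 and 0.86. Sox10, the lineage's transcription factor, had 1 and 0 counts with the particle and 11 and 12 in controls. The Pdgfra log2 fold change did not pass the threshold without control library 1 (adjusted p = 0.0569, edgeR). The oligodendrocyte counts were 3 rises and 2 falls without either particle library and 5 and 2 without control library 1. Of 18 tested vessel and fibroblast markers 9 rose and 3 fell, and the sums were 690 and 769 CPM with the particle and 443 and 394 CPM in controls. The endothelial gene Cldn5 and the pericyte gene Kcnj8 were at 0 counts in every library. Acta2, smooth muscle actin, had 227 and 242 CPM with the particle and 49.0 and 29.8 CPM in controls (2.58 ± 0.20). Dcn, a proteoglycan of fibroblasts, went the other way, with 1.35 and 1.63 CPM with the particle and 15.8 and 15.0 CPM in controls (−3.36 ± 0.21). Of 15 tested markers of choroid plexus and ependyma 9 rose (median 1.17); Otx2 rose by 1.78 and Foxj1, the regulator of motile cilia, had 137 and 157 CPM with the particle and 61.3 and 42.3 CPM in controls (1.51 ± 0.16). Of the 5 erythrocyte genes only Alas2 was tested and it did not pass the threshold.

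**Figure D3:**
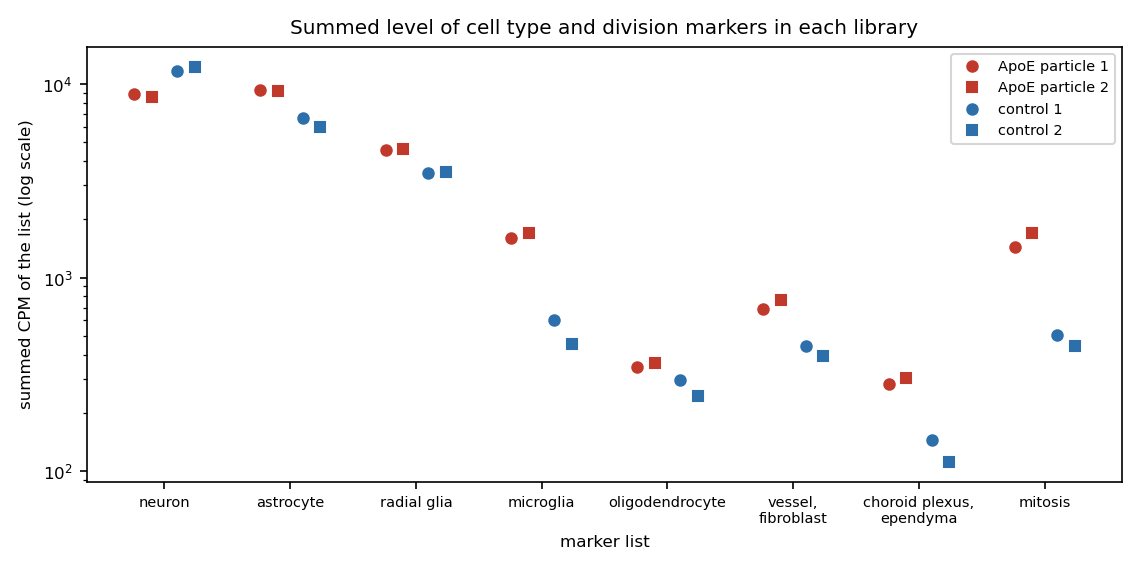
Summed CPM (log scale) of each list of cell type and division markers in the 4 libraries, with particle libraries (red) left of control libraries (blue). The neuron sum is lower with the particle, 8556 to 8894 against 11724 to 12283 CPM, and the microglia sum is higher, 1597 to 1706 against 453 to 601 CPM.

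Genes of cell division rose almost without exception. Of 36 mitosis genes 34 rose (median 1.86), and of 37 genes of DNA replication 31 rose (median 1.25). The mitosis list sums to 1437 and 1691 CPM with the particle and 507 and 445 CPM in controls. Top2a, which untangles replicated DNA, had 175 and 216 CPM with the particle and 48.1 and 44.9 CPM in controls, and Mki67, the proliferation antigen, 130 and 148 CPM with the particle and 39.8 and 38.6 CPM in controls (1.83 ± 0.10). All 36 mitosis genes and 36 of the 37 replication genes had both particle libraries above both controls, against 33.8% of all genes tested. Kif20a, a kinesin of the spindle midzone, rose by 2.57, Kif18b by 2.42, Ttk and Knl1, of the spindle checkpoint and kinetochore, both by 2.30, and Cdc20, which triggers anaphase, had 48.0 and 55.9 CPM with the particle and 12.7 and 9.19 CPM in controls (2.25 ± 0.15). Ccnd1, the cyclin of entry into the cycle, had 162 and 187 CPM with the particle and 49.3 and 46.6 CPM in controls (1.86 ± 0.10). E2f8 and Uhrf1 rose by 2.06 and 1.67. Cdkn1a and Cdkn2a, which restrain the cycle, rose by 0.82 and 1.44. Pttg1 and Cdkn1c did not pass the threshold (0.31 and 0.46). In bulk RNA these counts do not show which cells divided.

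Promoters of mitosis genes are known for NF-Y boxes and for the cell cycle homology region, searched as TTTGAA, which a repressor complex binds outside of division. NF-Y boxes were in 22 of the 29 promoter windows of the list and in 42.6% of those of all genes tested, and TTTGAA was in 20 of 29 and in 14.2% of all. The 150 bases before the start are shown for Cdc20 and Top2a, where both motifs lie in this stretch, and for Ccnb2, a mitotic cyclin that rose by 2.196 and holds 3 NF-Y boxes there. Capitals mark both motifs and their reverse complements, and no matches shared a base.
Cdc20 (chr4:118437344-118437493, minus strand): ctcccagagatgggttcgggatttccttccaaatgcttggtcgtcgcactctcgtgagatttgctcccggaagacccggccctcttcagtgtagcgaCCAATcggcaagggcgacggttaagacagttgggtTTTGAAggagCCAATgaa
Top2a (chr11:99024190-99024339, minus strand): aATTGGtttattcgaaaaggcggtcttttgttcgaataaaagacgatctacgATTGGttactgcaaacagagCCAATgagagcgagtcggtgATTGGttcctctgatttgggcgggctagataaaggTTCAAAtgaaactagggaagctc
Ccnb2 (chr9:70421555-70421704, minus strand): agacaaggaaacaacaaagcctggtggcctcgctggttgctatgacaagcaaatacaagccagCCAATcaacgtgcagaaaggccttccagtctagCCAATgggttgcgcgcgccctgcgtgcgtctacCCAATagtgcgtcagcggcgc

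Extracellular matrix genes rose in the same libraries. Of 34 tested collagen genes 20 rose (median 0.82), and of 50 other matrix and matrix-remodelling genes 26 rose and 7 fell (median 0.50). Col5a3 had 45.4 and 50.9 CPM with the particle and 9.28 and 7.41 CPM in controls (2.53 ± 0.14), and Col12a1 had 114 and 136 CPM with the particle and 28.6 and 28.0 CPM in controls (2.15 ± 0.11). Col1a1, of fibrillar collagen, rose by 2.13, and Col8a1 and Col8a2 by 2.282 and 2.346. Adamtsl3, which binds fibrillin fibres, had 28.6 and 36.1 CPM with the particle and 5.13 and 4.27 CPM in controls (2.79 ± 0.17). This was the largest rise among genes at 20 CPM or more without overlap, followed by Efemp1 (2.703), Anxa3 (2.62), Acta2 (2.58) and Kif20a (2.57). Predicted genes were left out of this ranking. Ltbp2, which binds latent TGF-beta, rose by 2.71, Fbln5, of elastic fibres, by 2.353 and Lox, which cross-links collagen, by 2.18. The proteoglycans of perineuronal nets did not follow: Acan had 1.05 and 1.24 CPM with the particle and 2.47 and 2.91 CPM in controls (−1.23 ± 0.33), Ncan fell by 0.39, and Bcan did not pass the threshold (−0.03). Without particle library 1 the falls in the list were 3.

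Of 44 tested genes of growth factor signalling 24 rose and 6 fell (median 0.59). Ctgf and Cyr61, matricellular genes known as targets of YAP and TGF-beta, had 30 and 29.7 CPM and 147 and 177 CPM with the particle, against 6.62 and 3.92 CPM and 54.7 and 35.2 CPM in controls. Their relatives Wisp1 and Wisp2 rose by 2.29 and 3.12, and Nov of the same family had 47.1 and 45.1 CPM with the particle and 121 and 118 CPM in controls (−1.37). The CCN family thus held 4 rises and 1 fall, none with overlapping groups. Over all genes tested 33.8% were higher and 34% lower without overlap. Tgfb1, Tgfb2 and Tgfb3 rose by 1.24, 0.77 and 1.29, and Bmp6, a bone morphogenetic protein that brain endothelium and glia release, rose by 1.85. Fst, which traps activins, fell by 1.69, and Inhba, the activin subunit that activity induces in neurons, had 11.7 and 13.5 CPM with the particle and 37.6 and 41.3 CPM in controls (−1.64 ± 0.12).

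Of 33 immediate early genes 12 rose and 3 fell (median 0.16). Klf4, Maff and Atf3, which stress and growth signals also induce, rose by 1.72, 1.46 and 1.33, and Fos had 24.5 and 23.9 CPM with the particle and 16.7 and 12.6 CPM in controls (0.72 ± 0.15). Npas4, the early gene most closely tied to neuronal activity, had 8.61 and 7.42 CPM with the particle and 9.73 and 7.59 CPM in controls, and Arc had 2.34 and 4.33 CPM with the particle and 3.63 and 1.36 CPM in controls. Both overlapped and neither passed the threshold (adjusted p = 0.695 and 0.488, edgeR). Of 24 tested late activity genes 12 fell and 5 rose (median −0.43): Nptx2, a pentraxin at excitatory synapses, fell by 1.72, and Igf1 had 42.9 and 43.5 CPM with the particle and 19.9 and 17.9 CPM in controls (1.20 ± 0.11).

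ATF4 is the transcription factor that amino acid shortage and unfolded protein stress bring up by way of translation. Atf4 had 94.0 and 89.3 CPM with the particle and 219.8 and 222 CPM in controls (−1.27 ± 0.09). Its targets Chac1 and Trib3 fell by 1.90 and 1.91 and Ddit3 by 0.70, while Gdf15, which several stresses induce, rose by 2.02 and Eif2ak2, the interferon-induced kinase PKR, by 1.47. Of 18 tested regulators 6 fell and 3 rose, beside 17.4% falling and 18.9% rising among all genes tested. Enzymes of serine and one-carbon metabolism split, with 8 falls and 6 rises among 20. Asns, which makes asparagine, had 60.7 and 53.5 CPM with the particle and 125 and 137 CPM in controls (−1.20 ± 0.10), and the mitochondrial folate enzymes Mthfd2 and Aldh1l2 fell by 1.21 and 1.17, while the cytosolic folate enzyme Mthfd1, active in nucleotide synthesis, had 84.0 and 91.7 CPM with the particle and 45.2 and 37.0 CPM in controls (1.10 ± 0.11). Phgdh and Psat1, which make serine, rose by 0.64 and 0.47. Of 23 tested amino acid transporters 12 fell and 3 rose (median −0.27, 7 falls without particle library 2): Slc7a3, a carrier of arginine and lysine, had 3.81 and 3.37 CPM with the particle and 19.2 and 18.4 CPM in controls (−2.39 ± 0.17), and Slc7a5, the carrier of large neutral amino acids, fell by 0.95. Slc38a3, the glutamine carrier of astrocytes, rose by 1.03.

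Of 20 cytoplasmic tRNA synthetases 13 fell and 1 rose (median −0.31). Cars had 49.0 and 49.8 CPM with the particle and 104 and 106 CPM in controls (−1.09 ± 0.08), and Aars had 144 and 136 CPM with the particle and 243 and 285 CPM in controls (−0.92 ± 0.10). Without particle library 1 there were 8 falls and without particle library 2 there were 7. The amino acid response element, searched as TGATGNAAT on both strands, was in 3 of the 12 promoter windows of this list. Over the windows of all genes tested the share was 0.542%. The element was in 1 of 17 windows of the serine and one-carbon list and in 2 of 18 of the ATF4 regulators. Both of those regulators had too few counts to be tested. The 150 bases before the start of Aars are shown as an example, with the match in capitals, 113 bases before the start.
Aars (chr8:111033692-111033841, plus strand): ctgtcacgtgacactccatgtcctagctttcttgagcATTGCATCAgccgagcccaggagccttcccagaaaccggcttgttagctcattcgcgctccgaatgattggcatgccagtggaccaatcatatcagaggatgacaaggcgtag

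Chaperones of the endoplasmic reticulum moved the other way, with 10 rises and 2 falls among 23 (median 0.37, 6 rises without particle library 2). Dnajc3, which restrains the kinases upstream of ATF4, had 113 and 121 CPM with the particle and 61.4 and 59.9 CPM in controls (0.95 ± 0.09), and Sdf2l1 rose by 1.29, while Herpud1, of protein degradation, and Xbp1 fell by 0.73 and 0.50. Genes of the NRF2 and metallothionein list had 16 rises and 2 falls among 29 (median 0.64). Nfe2l2, which encodes NRF2, had 142 and 148 CPM with the particle and 53.6 and 42.3 CPM in controls (1.596 ± 0.11), and Hmox1, which degrades heme, had 118 CPM in both particle libraries and 47.8 and 38.7 CPM in controls (1.45 ± 0.11). Mt1, a metallothionein with close relatives, rose by 1.15. Slc7a11, Gclm and Gpx4, classical NRF2 or glutathione genes, had log2 fold changes from −0.21 to 0.20. Of 36 lysosome genes 23 rose and 1 fell (median 0.53); Laptm5 and Ctss, which microglia use heavily and which are also in the microglia list, rose by 1.92 and 1.54, and Lamp1, found in most cells, by 0.59. The summed microglia level was over 2.5 times higher in the same libraries, and its part in these rises was not tested.

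Slc2a3, the glucose transporter of neurons, had 79.3 and 76.1 CPM with the particle and 155 and 158 CPM in controls (−1.01 ± 0.08), and Slc16a1, a lactate transporter of glia and vessels, had 108 and 100 CPM with the particle and 47.4 and 44.0 CPM in controls (1.19 ± 0.09). Over all 28 tested genes of glycolysis and hypoxia 12 fell and 5 rose (median −0.19), the rises near the 18.9% among all genes tested. Bnip3, of mitochondrial turnover, fell by 1.00 and Vegfa by 0.91. Imprinted genes held 6 rises and 6 falls among 28 (median −0.17), near the 18.9% rising and 17.4% falling among all genes tested. The growth genes H19, Dlk1, Peg10, Igf2 and Mest stood at the top of the list. Peg10 had 151 and 171 CPM with the particle and 51.6 and 48.8 CPM in controls (1.68 ± 0.10). Without control library 1 there were 13 imprinted falls, and without particle library 2 there were 2.

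Housekeeping lists set the scale for these changes. None of 52 tested ribosomal protein genes and none of 50 nuclear genes of the respiratory chain was called with edgeR, DESeq2 or limma-voom, and at an unadjusted p under 0.05 edgeR gave 1 ribosomal gene and 0 respiratory genes. Their medians were 0.01 and −0.00, and with library totals as the scaling the respiratory median was 0.10. These counts of 0 rest on the spread between the controls: without control library 1 edgeR called 28 ribosomal and 10 respiratory genes higher, and without control library 2 it called 19 and 11 lower. The ribosomal list sums to 12034 and 11379 CPM with the particle and to 12732 and 10663 CPM in controls, so the particle libraries lay between the controls. Ribosomal protein genes have many processed copies, between which counts could be split. Of 14 tested mitochondrially encoded genes the 2 ribosomal RNAs fell, mt-Rnr1 by 0.55 and mt-Rnr2 by 0.40, and 7 fell without control library 2.

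Very long genes fell more often than others. Among protein-coding genes that span 300 kb or more, 39.3% of 522 tested fell and 15.5% rose, with a median of −0.24. In the 4 classes of shorter span, 16.9% to 24.7% fell and 16.5% to 24.4% rose, with medians from −0.04 to 0.02. Long genes include many neuronal adhesion and channel genes, which fell as described above, and how far the lists overlap with the long genes was not tested. By chromosome the share that rose ranged from 15.4% to 24.9% and the share that fell from 13.8% to 20.8%.

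**Figure D4:**
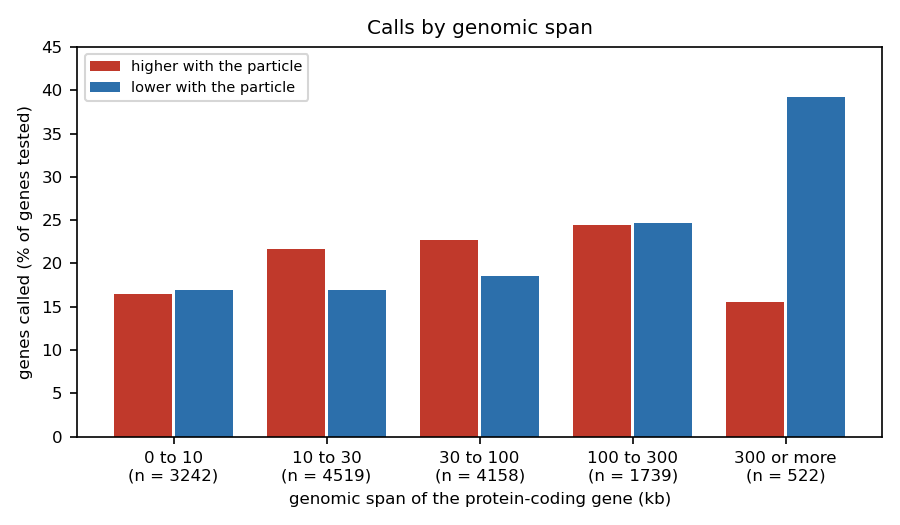
Percentage of tested protein-coding genes called higher (red) or lower (blue) with the particle, by genomic span. Among the 522 genes of 300 kb or more, 39.3% were lower and 15.5% higher.

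Beyond the lists, the largest falls among genes at 20 CPM or more without overlap included, after Mvd and Nrgn, Calb1, Cntnap3, Hs3st2, Nxph1, Idi1, Dusp26, Kcnip2, Grin2d and Rasal1. Predicted genes were left out here too. Calb1, a calcium buffer of several neuron types, had 18.1 and 12.6 CPM with the particle and 75.4 and 76.6 CPM in controls (−2.31 ± 0.14), and Cntnap3, a neuronal adhesion gene with close copies, had 6.7 and 8.09 CPM with the particle and 29.1 and 34.4 CPM in controls (−2.10 ± 0.15). Mvd and Idi1 are sterol genes, and Nrgn, Nxph1, Kcnip2 and Grin2d stand in the neuronal lists above. The remaining rises were Anxa3, Pi15, Ckap2, Iqgap3 and Cryab; Anxa3, an annexin, had 62.5 and 67.0 CPM with the particle and 11.8 and 9.31 CPM in controls (2.62 ± 0.13), and Cryab, a small heat shock protein of glia and muscle, had 53.6 and 58.8 CPM with the particle and 14.9 and 7.0 CPM in controls (2.37 ± 0.29).

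A second set of primary neurons, also of C57BL/6 mice, with its own 2 particle and 2 control libraries and no shared samples, was counted in another table. The particle effect in the first set minus that in the second was tested as an interaction in edgeR's quasi-likelihood test, and 5320 of 17098 genes (31.1%) were called. In its own fit the second set had 1804 rises (11.3%) and 1963 falls (12.3%). Among 15477 genes tested in both sets, 2821 fell in the first, and 520 of them also fell in the second, which is 18.4% of the first list and 27.1% of the second, while 471 of them (16.7%) rose there. Of 2814 genes that rose in the first set 187 also rose in the second, 6.64% of the first list and 10.5% of the second, and 582 (20.7%) fell there.

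Sterol enzymes fell in both sets, and in the second 7 of 11 early and 7 of 12 later ones did. Mvd had 28.0 and 27.7 CPM with the particle and 69.2 and 66.0 CPM in controls of the second set, and its log2 fold change was lower in the first set by 1.42 ± 0.13 (adjusted p = 1.46e-06). Hmgcs1 and Sqle were lower in the first set by 0.84 and 0.71, and 10 of 11 early and 8 of 12 later sterol enzymes were called in the interaction. The Sqle difference ended without either first-set control library (adjusted p = 0.124 and 0.151). Slc17a7 also fell in both sets, by 0.66 more in the first. Other genes had opposite signs. Abca1 had 133 and 154 CPM with the particle and 333 and 329 CPM in controls of the second set, so that the difference between the sets was 2.35 ± 0.11. Gfap and Top2a likewise fell in the second set and rose in the first, with differences of 2.57 and 2.65. Lrp2 did not pass the threshold in the second set (adjusted p = 0.121), and its difference was 2.97. Atf4 had 337 and 314 CPM with the particle and 124 and 143 CPM in controls of the second set, a difference of −2.52 ± 0.11. Apoe had 593 and 688 CPM with the particle and 686 and 660 CPM in controls of the second set, where the groups overlapped, and the difference was 0.87 ± 0.20 (adjusted p = 0.00966).

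**Figure D5:**
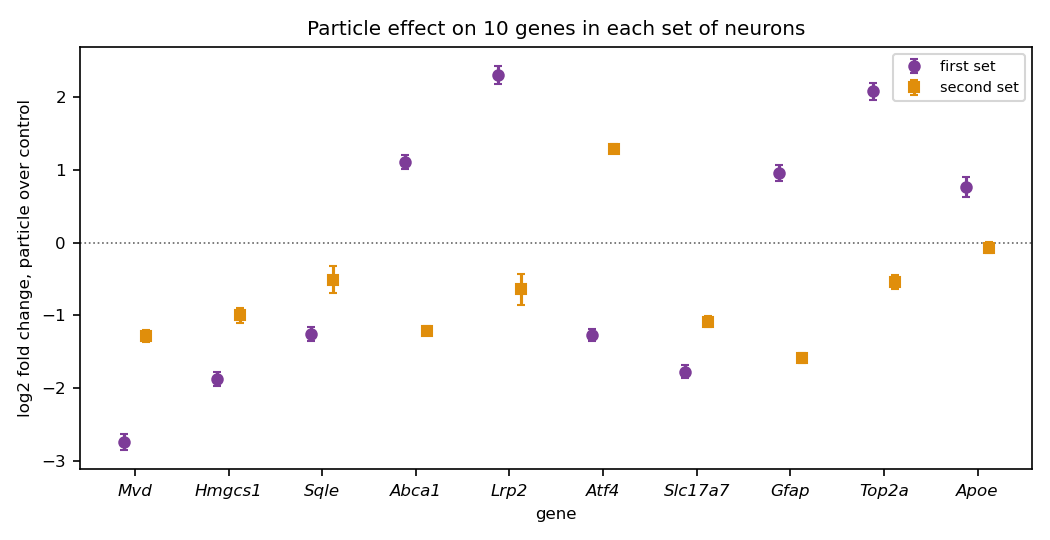
Log2 fold change (particle over control) of 10 genes in the first set (circles) and the second set (squares), each from its own fit with bars of ± 1 SE. Mvd, Hmgcs1, Sqle and Slc17a7 lie below 0 in both sets, and Abca1, Lrp2, Gfap and Top2a lie above 0 in the first and below 0 in the second.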

How the data were processed

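RNA-seq counts of 4 libraries of mouse primary neurons were analysed, with 4 libraries of a second set for one comparison. The authors deposited whole-number counts per gene, with no normalization. Named in the submitters' processing notes are the build mm10 and the tools HTSeq 0.6.0, HISAT2 2.1.0 and Bowtie2 2.2.3. No source used here gives their roles or the strand setting, so reads of overlapping antisense genes cannot be told apart. Of 30552 identifiers 30483 matched the reference names, and 25 symbols stored as dates were restored from them.

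Genes were kept by filterByExpr, scaled by TMM and tested with edgeR 4.0.16 (quasi-likelihood, robust, no replicate block) in R 4.3.3. P-values were adjusted by Benjamini-Hochberg over all genes tested, with 0.05 as the threshold. Each standard error is the absolute log2 fold change divided by the square root of the F statistic. CPM uses TMM-scaled totals. The fits were tested on simulated data. Alternatives were DESeq2 1.42.0, limma 3.58.1 (voom), other scalings, no filter, a replicate block and leaving out each library.

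The 52 lists and the members were chosen with earlier results of these data known. Genes named by rule were sterol synthesis and sensing genes, up to 5 called genes per other list with the largest change at 2 CPM or more, 12 rises and 12 falls at 20 CPM or more without overlap, and Apoe and 9 further genes compared between sets. The 12 rises and 12 falls leave out predicted genes, which have Gm numbers, Rik names or clone names. Lower-count entries of a repeated symbol are left out as well. Other members of the lists were named after their values were seen. Promoter sequences are RefSeq's, on GRCm38.p6. Where a gene had several starts, a motif was counted if any of its windows held it. The stretch shown for such a gene is the one with the most matches. Some list members count in the lists but are not reported here by name.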

Additional observations from a re-analysis of the deposited data

Results flagged for a closer look

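For 10 genes the particle effect differed between the first and the second set of neurons by the interaction term, given as the log2 effect in the first set minus that in the second. It was −1.42 for Mvd, −0.84 for Hmgcs1, −0.71 for Sqle and −0.66 for Slc17a7, which fell in both sets or, for Sqle in the second set, did not pass the threshold (adjusted p = 0.226, edgeR). It was 2.35 for Abca1, 2.57 for Gfap, 2.65 for Top2a and 2.97 for Lrp2, whose values were above control in the first set and below it in the second. It was −2.52 for Atf4, which was below control in the first set and above it in the second, and 0.87 for Apoe. The sets were counted in separate tables and have their own controls, and what differed between them besides the particle is not stated in the labels.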

How the results depend on the processing

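The count of 5993 called genes ran from 3521 to 7610 when 1 library was left out, the 3119 rises from 2069 to 3867 and the 2874 falls from 1452 to 3743. Particle library 2 moved these most: without it 3521 genes were called, 2069 higher and 1452 lower, and without particle library 1 there were 1825 falls. The 5320 interaction calls ran from 3492 (without particle library 2 of the first set) to 6245 (without control library 2 of the first set). DESeq2 called 2461 rises and 2304 falls, and 4750 of the 5993 genes were called in it. Of 279 genes named by rule and tested, a count that leaves out other genes named in the text, 269 were called. Under every alternative none of the 279 changed direction past the threshold. The number that lost the call was 11 with DESeq2, 4 with library totals, 17 without particle library 1, 18 without particle library 2, 1 without control library 1 and 3 without control library 2. The labels do not say whether same-numbered libraries share more than a number. Over genes, the difference between the particle libraries and that between the control libraries correlated at 0.0231. That value does not decide it, because the particle libraries differed little from each other. With the number as a replicate block 3331 genes rose and 3055 fell, 6386 in all, and the interaction gave 5105 calls. With 2 libraries a group the spread rests on few values.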
